A study of Homo sapiens with 18 samples.

Results

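A set of 10 genes that mark the ovarian and Mullerian lineage were followed through 18 RNA-seq libraries: PAX8, PAX2, WT1, SOX17, EMX2, MUC16, MSLN, WFDC2, FOLR1 and ESR1. The members were the rows of the count table whose Ensembl identifier carries one of these symbols, and all 10 matched 1 row each of the 57736 in the table. The libraries came from A1847, an ovarian cancer cell line, in 3 genotypes. Control cells were wild type for CARM1 and XBP1. CARM1 knockout cells (koCARM1) were wild type for XBP1, and XBP1 knockdown cells (shXBP1) kept CARM1. CARM1 is an arginine methyltransferase that acts as a coactivator of transcription, and XBP1 is a transcription factor of the endoplasmic reticulum (ER) stress response. Each genotype received vehicle or 5 μg/ml tunicamycin for 8 h, an antibiotic that blocks protein glycosylation in the ER and so raises ER stress, with 3 replicates in each of the 6 groups. The knockout was made with a guide in a lentiviral CRISPR vector and the knockdown with 1 lentiviral hairpin. The sources used here do not state whether the knockout cells were 1 clone or a pool, or whether the controls carried an empty vector. The labels do not say that replicates were separate cultures, so p-values measure only the spread between these libraries.

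The Mullerian duct gives rise to the fallopian tube, the uterus and the upper vagina, and the transcription factors PAX2, PAX8 and EMX2 are active in its epithelium. PAX8 stays on in the secretory cells of the adult tube and is the standard nuclear marker of serous ovarian carcinoma, usually together with WT1. MUC16 (the antigen CA125), WFDC2 (the antigen HE4), MSLN (mesothelin) and FOLR1 (folate receptor alpha) are surface or secreted products of the same tumors that serve as blood markers or drug targets, and ESR1 encodes estrogen receptor alpha.

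Library totals ran from 9367462 to 13917212 counts. The 6 koCARM1 libraries stood apart from the other 12. Across genes, log2 CPM (counts scaled to library size) correlated at r = 0.730 to 0.775 between koCARM1 and the other libraries, at 0.961 to 0.987 between control and shXBP1, and at 0.986 to 0.989 between replicates of 1 group. CARM1 counts were 625 to 946 in the koCARM1 libraries and 1597 to 2680 elsewhere, so the mRNA was lower but still counted, and whether the 3 prime reads lie outside the edited site was not tested. XBP1 counts in the shXBP1 libraries were below those of the matching control libraries, at 339 to 378 against 587 to 661 with vehicle. HSPA5, the ER chaperone that ER stress induces, rose with tunicamycin by 3.08 (control), 3.77 (koCARM1) and 2.98 (shXBP1) on the log2 scale.

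A library was taken to detect a gene when it held more than 3 counts. In control cells 1 of the 10 members was detectable in all libraries of both groups (PAX2), 1 in part of them (FOLR1), and 8 in none. In shXBP1 cells 2 were detectable (PAX2 and FOLR1) and 8 were not. In koCARM1 cells 5 were detectable (PAX8, PAX2, MSLN, WFDC2 and FOLR1), 2 in part of the libraries (WT1 and ESR1), and 3 in none (SOX17, EMX2 and MUC16). Of the standard markers of serous ovarian carcinoma, PAX8, WT1 and MUC16 were thus not detectable in any control library.

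The 3 members PAX8, MSLN and WFDC2 were detectable in every koCARM1 library and in no other library. The same held for 736 of the 18673 genes that were detectable in at least 1 group, or 3.94%. PAX2 was the 1 member detectable in all 6 groups, a state shared by 72.0% of those genes. No member was detectable in the control and shXBP1 libraries and absent from the koCARM1 libraries, a state of 1.73% of the genes. SOX17, EMX2, MUC16 and ESR1 were not detectable in all libraries of any group, so they are not among the 18673 genes. The members were also chosen with earlier results of these data known, so these shares do not test whether the members stand out.

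**Figure D1:**
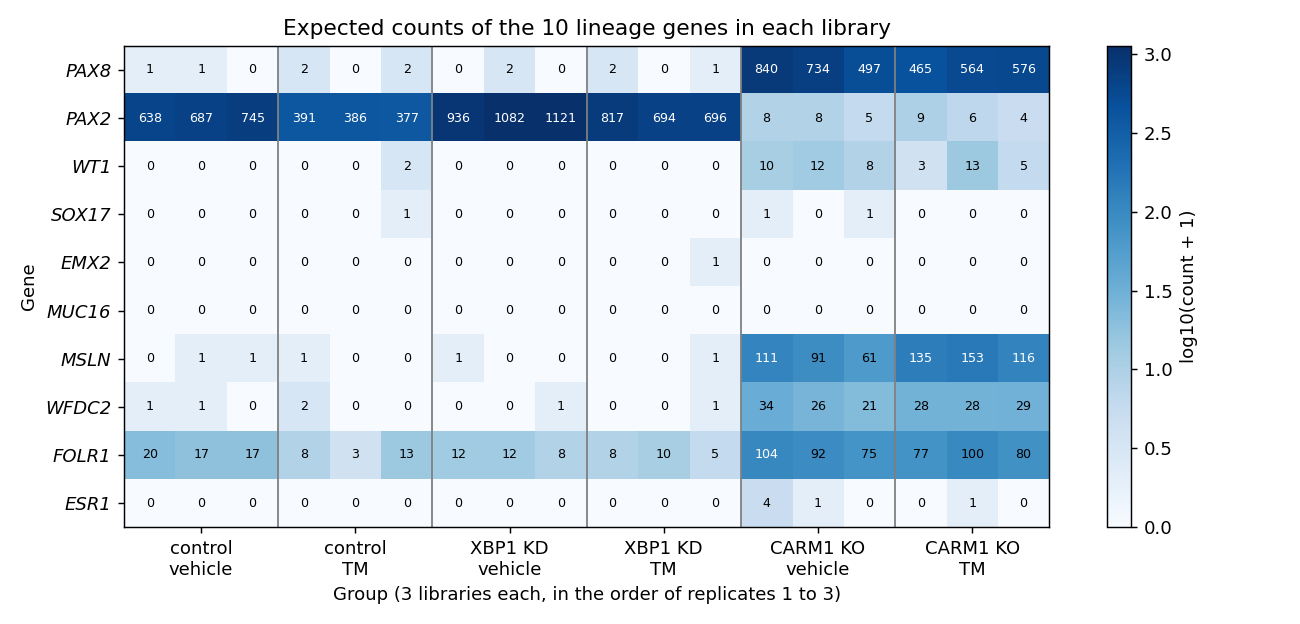
Expected counts of the 10 genes (rows) in each of the 18 libraries (columns, 3 per group). The number in each cell is the count and the color is log10(count + 1). PAX8, MSLN and WFDC2 reach 21 or more counts only in the 6 CARM1 knockout libraries, PAX2 falls to 4 to 9 counts there, and MUC16 is at 0 in all libraries.

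PAX8 and PAX2 are paralogs that overlap in function in the developing kidney and genital tract, and they had opposite patterns here. The windows around their start sites are shown because these 2 paralogs differed in opposite directions between genotypes and reached the highest counts of the 10 members. They come from RefSeq (GRCh38.p14), run from 250 bases before to 50 bases after the start, and hold letters in capitals wherever a motif was found on either strand. The motifs searched were CCAAT (held by 34.6% of all 35116 windows of that length), CCACG (38.1%), ACGTG (21.4%) and ACGTCA (7.98%), of which CCACG and ACGTG can overlap. CCAAT and CCACG are parts of the ER stress response element, and ACGTG is a core that XBP1 and ATF6 can bind. The PAX8 window held 2 CCAAT matches and none of the others. The first PAX2 window held 1 CCACG and 1 ACGTG match, and the second, at an alternative start, held none of the 4. A match is a description of the letters and not of binding.
PAX8, chr2:113278872-113279171, minus strand: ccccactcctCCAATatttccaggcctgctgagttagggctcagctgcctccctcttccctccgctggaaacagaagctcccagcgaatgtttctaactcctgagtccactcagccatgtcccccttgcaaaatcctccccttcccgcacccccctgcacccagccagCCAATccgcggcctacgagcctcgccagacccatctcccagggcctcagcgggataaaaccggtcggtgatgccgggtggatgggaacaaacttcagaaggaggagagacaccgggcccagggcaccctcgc
PAX2 first window, chr10:100735146-100735445, plus strand: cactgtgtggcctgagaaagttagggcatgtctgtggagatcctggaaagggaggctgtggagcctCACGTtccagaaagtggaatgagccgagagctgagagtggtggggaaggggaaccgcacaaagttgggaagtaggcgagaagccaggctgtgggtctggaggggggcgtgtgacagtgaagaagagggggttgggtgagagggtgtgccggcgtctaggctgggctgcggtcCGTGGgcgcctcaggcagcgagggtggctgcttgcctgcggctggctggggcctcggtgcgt
PAX2 second window, chr10:100745332-100745631, plus strand: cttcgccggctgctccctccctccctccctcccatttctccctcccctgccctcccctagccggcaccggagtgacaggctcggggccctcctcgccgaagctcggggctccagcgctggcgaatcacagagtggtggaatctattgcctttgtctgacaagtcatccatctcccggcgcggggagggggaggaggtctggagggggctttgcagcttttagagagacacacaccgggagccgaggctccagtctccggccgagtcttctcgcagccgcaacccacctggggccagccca

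PAX8 (ENSG00000125618, chr2:113973574-114036498 on GRCh37, minus strand) was found in koCARM1 cells. Its counts with vehicle were 840, 734 and 497 in the koCARM1 libraries and 1, 1 and 0 in control. With tunicamycin they were 465, 564 and 576 against 2, 0 and 2, and the 6 shXBP1 libraries held 0 to 2. The koCARM1 libraries lay far above all others and no group overlapped with them. In CPM scaled by the edgeR normalization factors, PAX8 reached 61.2 ± 4.17 (SD, n = 3) with vehicle and 43.4 ± 3.14 with tunicamycin in koCARM1 cells. Since the other groups were at or under the detection limit, the ratio of summed counts per library size is given with its exact 95% interval, which covers counting error only. It was 1279 (354 to 10572) between koCARM1 and control with vehicle and 406 (158 to 1493) with tunicamycin. PAX8 shares part of its locus with the antisense gene PAX8-AS1. The setting for strand in the counting is not given in the sources used here, and the PAX8-AS1 row held 1 to 6 counts in the koCARM1 libraries.

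PAX2 (ENSG00000075891, chr10:102495153-102589701, plus strand) went the other way. Its counts in control were 638, 687 and 745 with vehicle and 391, 386 and 377 with tunicamycin. In koCARM1 they were 8, 8 and 5 with vehicle and 9, 6 and 4 with tunicamycin. In shXBP1 they were 936, 1082 and 1121 with vehicle and 817, 694 and 696 with tunicamycin. PAX2 was therefore highest in shXBP1, lower in control and near the detection limit in koCARM1, and the 3 genotypes did not overlap at either treatment. In CPM the order was 75.2 ± 4.30 (shXBP1, vehicle), 58.7 ± 1.91 (shXBP1, tunicamycin), 49.9 ± 0.630 (control, vehicle), 31.0 ± 2.07 (control, tunicamycin), 0.621 ± 0.0491 (koCARM1, vehicle) and 0.522 ± 0.230 (koCARM1, tunicamycin), each mean ± SD with n = 3. Only the last 2 groups overlapped in that order.

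WT1 (ENSG00000184937, chr11:32409321-32457110, minus strand), the zinc finger factor used with PAX8 to mark serous tumors, was at the limit of detection. Its counts were 10, 12 and 8 in koCARM1 with vehicle and 3, 13 and 5 with tunicamycin. No count was found in the control vehicle or the shXBP1 libraries, and 2 counts fell in 1 control tunicamycin library. Since control with vehicle held no WT1 count, no ratio could be estimated there. With 3 counts set for the 3 control libraries together, koCARM1 stood 12.4-fold above that limit. A limit of 3 counts in each library, as used for detection, would give a smaller value. The value of 12.4 leaves out counting error in the koCARM1 libraries and has no interval. The ratio with tunicamycin was 10.6 (exact 95% interval 2.60 to 93.5). SOX17, an endoderm and tubal factor that works with PAX8, gave at most 1 count in any library, and EMX2, a homeobox factor of the urogenital tract, gave 1 count in 1 shXBP1 library. At this depth 3 counts correspond to 0.226 to 0.343 CPM in the shallowest library of each group, so lower levels of these factors were not detectable.

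Among the surface and secreted antigens, MSLN (ENSG00000102854, chr16:810734-818865, plus strand) had counts of 111, 91 and 61 in koCARM1 with vehicle and 135, 153 and 116 with tunicamycin. The other 12 libraries held 0 or 1. The ratio of koCARM1 to control was 162 (44.5 to 1349) with vehicle and 409 (73.0 to 16199) with tunicamycin, with exact 95% intervals.

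WFDC2 (ENSG00000101443, chr20:44098393-44110172, plus strand), a secreted protein of the whey acidic protein family, had 34, 26 and 21 counts in koCARM1 with vehicle and 28, 28 and 29 with tunicamycin, and 0 to 2 elsewhere. Its ratio was 50.0 (13.4 to 420) with vehicle and 43.0 (11.6 to 361) with tunicamycin. The control counts of WFDC2 and of MSLN with tunicamycin all lay in replicate 1, and those of WT1 in replicate 3. Without that library the fitted log2 difference, which depends on the prior count and is no bound, went from 5.19 to 7.86 for WFDC2, from 8.22 to 10.10 for MSLN and from 3.19 to 5.82 for WT1. MUC16, the very large mucin that carries CA125, had no count in any of the 18 libraries.

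FOLR1 (ENSG00000110195, chr11:71900602-71907367, plus strand), which takes up folate at the cell surface, was the 1 antigen with more than 3 counts in libraries of all 3 genotypes. Control libraries held 20, 17 and 17 with vehicle and 8, 3 and 13 with tunicamycin. The koCARM1 libraries held 104, 92 and 75, and 77, 100 and 80, in the same order. The shXBP1 libraries held 12, 12 and 8, and 8, 10 and 5. The koCARM1 libraries lay above all others, while control and shXBP1 overlapped with tunicamycin. In CPM, FOLR1 was 8.12 ± 0.438 and 6.96 ± 0.848 in koCARM1 with vehicle and tunicamycin, against 1.31 ± 0.211 and 0.633 ± 0.371 in control (SD, n = 3).

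ESR1, the estrogen receptor, had 4, 1 and 0 counts in koCARM1 with vehicle, 0, 1 and 0 with tunicamycin, and none in the other 12 libraries. It was detected in a single library, and no comparison of ESR1 was made.

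**Figure D2:**
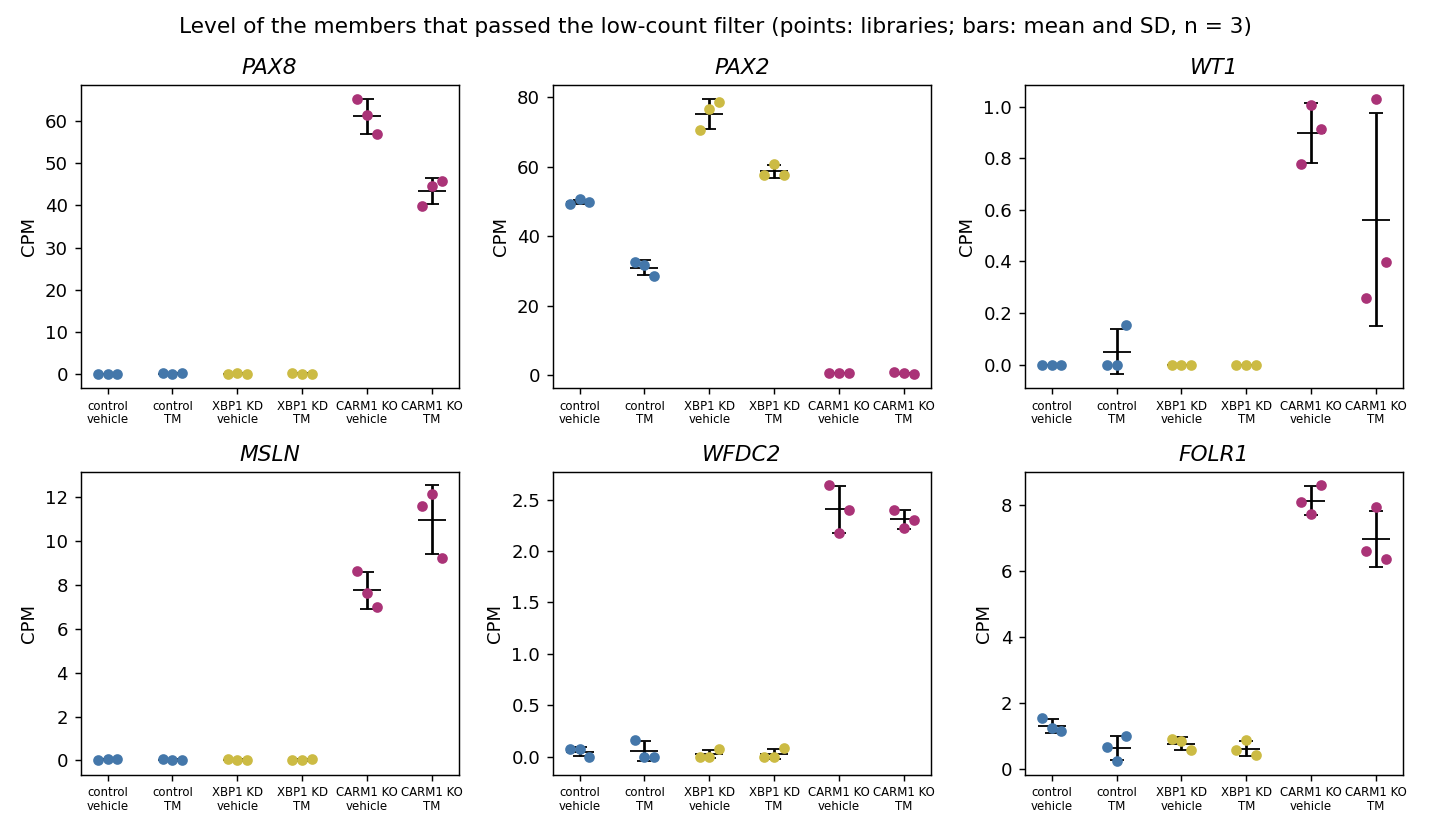
Level in CPM (linear axis) of the 6 genes that passed the filter on low counts, by group. Points are libraries, and bars give the mean and SD of 3 libraries. PAX8, WT1, MSLN, WFDC2 and FOLR1 are highest in the CARM1 knockout groups, and PAX2 is highest in the XBP1 knockdown with vehicle (75.2) and close to 0 in the knockout.

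Of the 10 members, 6 passed the filter and entered the tests, which compared each gene among 17317. PAX8, WT1, MSLN and WFDC2 passed only through the koCARM1 libraries, so that their difference between koCARM1 and control follows in part from the filter. With vehicle, 5 of the 6 were higher in koCARM1 than in control (PAX8, WT1, MSLN, WFDC2 and FOLR1) and 1 was lower (PAX2) at an FDR of 5% (edgeR quasi-likelihood test, Benjamini-Hochberg adjustment). The background was high, since 37.5% of all genes tested were higher and 36.9% were lower, 74.4% in all. With tunicamycin the split was again 5 higher and 1 lower, against 38.4% and 36.8% of all genes, 75.2% in all. A call in this comparison was thus the usual state of a gene.

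For PAX2 and FOLR1, which passed the limit in at least part of the libraries of both genotypes, fold changes are given. PAX2 was lower in koCARM1 than in control by −6.34 on the log2 scale with vehicle (SE 0.142, adjusted p = 2.63e-15) and by −5.87 with tunicamycin (SE 0.187, adjusted p = 4.31e-13). FOLR1 was higher by 2.58 with vehicle (SE 0.207, adjusted p = 1.63e-08) and by 3.43 with tunicamycin (SE 0.302, adjusted p = 6.89e-08). The call for WT1 with tunicamycin (adjusted p = 0.0102) rested on koCARM1 tunicamycin replicate 2, the library with 13 counts, and was lost without it (adjusted p = 0.0776).

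PAX2 differed between shXBP1 and control cells. With 1 hairpin, loss of XBP1 cannot be told apart from any other way in which the shXBP1 cells differ. In shXBP1 cells PAX2 was higher than in control by 0.59 on the log2 scale with vehicle (SE 0.0638, edgeR adjusted p = 6.46e-05) and by 0.92 with tunicamycin (SE 0.0728, adjusted p = 3.79e-07), or 1.5-fold and 1.9-fold, and all 3 shXBP1 libraries lay above all 3 control libraries both times. It was the 1 member called with vehicle, where 2.07% of all genes were higher and 3.03% lower (5.10% in all), and the 1 called with tunicamycin, where 6.99% were higher and 8.55% lower (15.5% in all). FOLR1 differed by −0.76 with vehicle (SE 0.391, adjusted p = 0.324) and by −0.06 with tunicamycin (SE 0.583, adjusted p = 0.984), and neither value passed the test. With vehicle the FOLR1 libraries of the 2 genotypes did not overlap in CPM either, so a lack of overlap also occurred without a call. PAX8, MSLN, WFDC2 and WT1 were at or under the limit in both genotypes.

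PAX2 was lower with tunicamycin in control and shXBP1 cells. It fell by 0.68 on the log2 scale in control (SE 0.0766, edgeR adjusted p = 2.04e-06) and by 0.37 in shXBP1 (SE 0.0617, adjusted p = 0.000182), and vehicle and tunicamycin libraries did not overlap in either. It was the 1 member called in control, where 22.0% of all genes were higher and 19.9% lower (41.9% in all), and the 1 called in shXBP1, where 19.2% were higher and 19.0% lower (38.3% in all). In control, the FOLR1 libraries did not overlap between treatments in CPM either. FOLR1 there differed by −1.01 (SE 0.470, adjusted p = 0.10), which did not pass. This value moved with single libraries, to −1.50 (adjusted p = 0.0470) without control tunicamycin replicate 3, which held 13 counts, and to −0.64 (adjusted p = 0.303) without replicate 2, which held 3.

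In koCARM1 cells PAX8 and MSLN moved in opposite directions with tunicamycin. PAX8 fell by 0.46 on the log2 scale (SE 0.0668, edgeR adjusted p = 7.17e-06), and MSLN rose by 0.53 (SE 0.139, adjusted p = 0.00424). Neither gene overlapped between treatments in CPM. These were 1 member higher and 1 lower, against 20.6% and 18.8% of all genes (39.5% in all). PAX2 (−0.23, SE 0.547), WT1 (−0.61, SE 0.533), WFDC2 (−0.03, SE 0.253) and FOLR1 (−0.18, SE 0.145) did not pass, with adjusted p of 0.789, 0.399, 0.960 and 0.359.

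A difference between genotypes in the tunicamycin response was tested as an interaction term, and its values are given for PAX2 and FOLR1, since the other members tested were at or under the limit in every control and shXBP1 library. Between koCARM1 and control no member was called (of all genes 10.5% were higher and 12.4% lower, 22.9% in all), none had an unadjusted p under 0.05 and DESeq2 called 0. PAX2 gave 0.42 (SE 0.397, adjusted p = 0.573) and FOLR1 0.80 (SE 0.400, adjusted p = 0.171). The FOLR1 term passed when control tunicamycin replicate 3 was left out (1.36, adjusted p = 0.0364) and was 0.49 (adjusted p = 0.393) without replicate 2 of that group. Between shXBP1 and control no member was called either (of all genes 0.364% were higher and 1.67% lower, 2.04% in all), 1 had an unadjusted p under 0.05 and DESeq2 called 0. That 1 was PAX2, at 0.32 on the log2 scale (SE 0.0936, adjusted p = 0.0954). The smaller fall of PAX2 in shXBP1 than in control therefore did not pass the test, although it did when genes were not filtered on low counts (0.35, adjusted p = 0.0485).

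**Figure D3:**
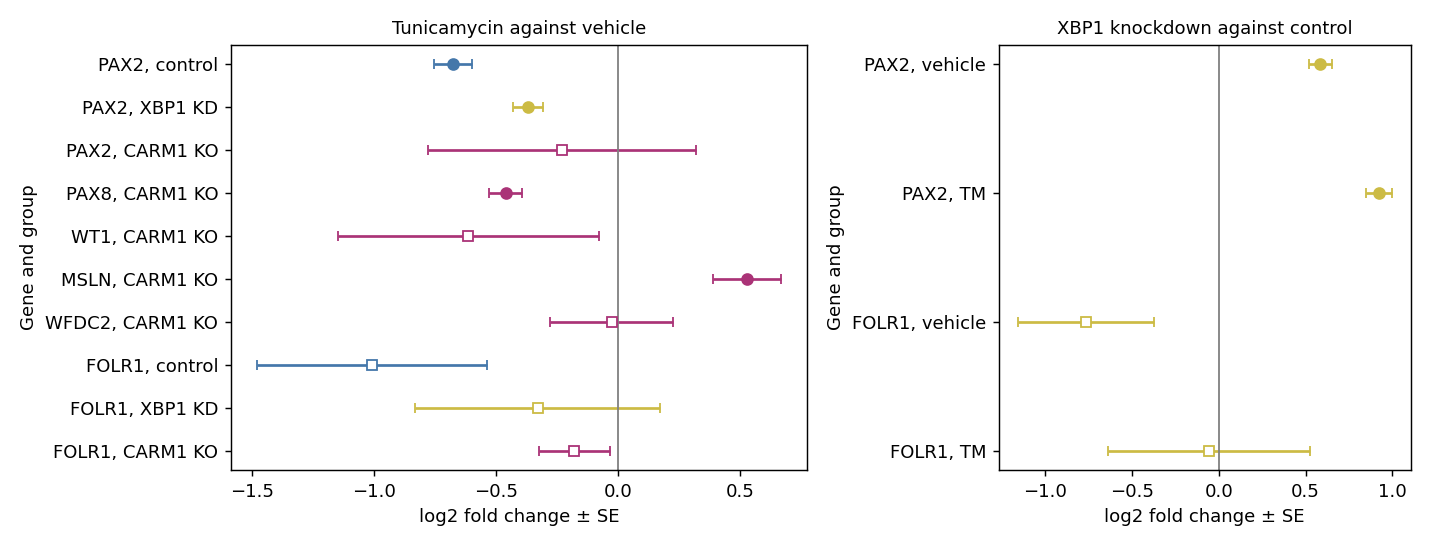
Log2 fold changes with their SE for members with counts in the groups compared, from the edgeR fits. The left panel gives tunicamycin against vehicle within a genotype and the right panel XBP1 knockdown against control; filled circles passed an FDR of 5% and open squares did not, with control in blue, XBP1 knockdown in yellow and CARM1 knockout in purple. PAX2 is lower with tunicamycin in control (−0.68) and in the knockdown (−0.37), and PAX8 (−0.46) and MSLN (0.53) move apart in the knockout.

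Other genes of Mullerian development differed in both directions. The count table held 15 such companions, of which 10 were tested, and 3 were higher and 3 lower in koCARM1 than in control with vehicle, beside 37.5% and 36.9% of all genes, with a median log2 difference of −0.19 beside −0.03 for all genes. These shares are near the background. PGR, the progesterone receptor, had 52 to 70 counts in koCARM1 with vehicle, 30 to 40 with tunicamycin, and none in the other 12 libraries. NR2F2, a nuclear receptor of the urogenital mesenchyme, was higher by 3.95 (SE 0.0585), and WNT5A, a ligand of duct outgrowth, by 4.33 (SE 0.392). The retinoic acid receptor RARG (−2.91, SE 0.105) and the receptor BMPR1A (−1.89, SE 0.0888) were among those lower. PGR was thus present in the same libraries as PAX8.

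Tunicamycin lowered 4 of these 10 companions in control, 5 in koCARM1 and 3 in shXBP1, beside 19.9%, 18.8% and 19.0% of all genes, and raised none, beside 22.0%, 20.6% and 19.2%. RARG fell in all 3 genotypes, by 1.16, 0.83 and 1.08 on the log2 scale, and BMPR1A by 0.47, 0.57 and 0.36. PGR fell by 0.90 in koCARM1 (SE 0.189, adjusted p = 0.000558). In shXBP1 against control with vehicle, none was higher and 2 were lower, among them NR2F2 (−0.69), beside 2.07% and 3.03% of all genes.

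Of 21 other genes for antigens of ovarian carcinoma 9 were tested, with 4 higher and 3 lower in koCARM1 both with vehicle (median −0.15) and with tunicamycin (median 0.08). The 7 called of 9 stand beside 74.4% of all genes with vehicle and 75.2% with tunicamycin, so the list was near the background. L1CAM, an adhesion molecule, was higher by 7.65 (SE 0.132), EPCAM, the epithelial adhesion molecule, by 2.76 (SE 0.186) and MUC1, a membrane mucin, by 2.50 (SE 0.221). SLPI, a protease inhibitor of the same protein family as WFDC2, had 8 to 26 counts in koCARM1 and none elsewhere. CLDN6, a tight junction protein of embryonic epithelia, was lower by −4.92 (SE 0.289), and SPP1 (osteopontin) had 15 to 23 counts in control and none in koCARM1. With XBP1 knockdown and vehicle, CLDN6 was lower by −1.68 (SE 0.174, adjusted p = 3.85e-05) and the other 8 tested did not pass. With tunicamycin 2 were lower, CLDN6 (−1.37) and SPP1 (−2.01, SE 0.454, adjusted p = 0.00686), and 7 did not pass. Of all genes, 5.10% were called between shXBP1 and control with vehicle and 15.5% with tunicamycin.

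While ESR1 was detected in a single library, genes known as targets or partners of the receptor differed between genotypes. Of 15 tested, 8 were higher and 6 lower in koCARM1 with vehicle (median 0.63), and 6 were higher and 6 lower with tunicamycin (median −0.16), beside 74.4% and 75.2% of all genes called. With vehicle they included GATA3 (4.40, SE 0.142), IGFBP4 (4.31, SE 0.0801) and CCND1 (2.10, SE 0.0419) higher and CA12 (−3.34, SE 0.177) lower. GATA3, a transcription factor of breast and urothelium, was also lower in shXBP1 than in control (−1.89, SE 0.490, adjusted p = 0.0375). The related receptor ESR2 had at most 15 counts in any library.

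Among the paralogs of the members 7 of 18 were tested. With vehicle 2 were higher and 4 lower in koCARM1 than in control, beside 37.5% and 36.9% of all genes. PAX9, a factor of the pharyngeal pouches, was lower in koCARM1 than in control with vehicle (−2.81, SE 0.156), as were SOX18 (−2.44, SE 0.155) and PAX6 (−0.58, SE 0.213, adjusted p = 0.0225), a factor of the eye and pancreas, and PAX1, which had 5 to 9 counts in control and 0 in koCARM1. SOX7, of the same subfamily as SOX17, was higher (0.60, SE 0.246, adjusted p = 0.0384). PAX6 rose with tunicamycin in control (0.58), koCARM1 (1.41) and shXBP1 (0.91) and was higher in shXBP1 than in control (0.95, SE 0.149, adjusted p = 0.00157). PAX2 was thus not the 1 PAX gene higher with XBP1 knockdown, and the 2 moved in opposite directions with tunicamycin. FOLR2 and FOLR3, the neighbours of FOLR1, had at most 4 counts, and the MSLN neighbour MSLNL had none.

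Markers of other tissues moved with the same libraries. The summed CPM of 6 epithelial markers was 311 to 488 in control, 130 to 215 in shXBP1 and 2204 to 2708 in koCARM1. KRT7, a keratin of the Mullerian epithelium, had 0 to 13 counts in the control and shXBP1 libraries and 3576 to 5166 in koCARM1, and KRT8 and KRT18 were higher there by 3.61 and 2.47 with vehicle (the ends of these 2 genes overlap on opposite strands). In shXBP1 KRT8 (−1.61) and KRT18 (−1.19) were lower than in control. KRT19 was the 1 lower of the 6 in koCARM1, with no count there and 5 to 44 in control. The other 5 were higher with vehicle, beside 37.5% of all genes higher and 36.9% lower.

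The 5 germ cell markers summed to 262 to 373 CPM in control and 307 to 379 in shXBP1 but 3.89 to 6.66 in koCARM1. LIN28A, an RNA-binding protein of early embryonic and germ cells, had 1714 or more counts in each control and shXBP1 library and 4 to 19 in koCARM1, and SALL4, a zinc finger factor of the same cells, 1405 or more against 24 to 51. NANOG, a pluripotency factor, had 25 to 119 counts in control and 0 to 2 in koCARM1, while POU5F1, the defining factor of that state, had at most 9 counts in any library. PAX2, LIN28A and SALL4 were thus each lower in every koCARM1 library than in any other, and PAX8 and KRT7 higher.

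Of the other lists, 7 mesothelial markers summed to 8.82 to 13.5 CPM in control and 24.7 to 32.0 in koCARM1. MSLN is itself a mesothelial gene. Of the 6 list genes tested, 3 were higher and 2 lower in koCARM1 with vehicle, beside 37.5% and 36.9% of all genes. BNC1 had 147 to 271 counts there against 0 to 5 elsewhere, while PDPN (−2.40) and UPK3B (−0.66) were lower. The 7 intestinal markers summed to 2.36 to 3.61 CPM in control and 17.8 to 20.1 in koCARM1. Of the 3 tested, 2 were higher and 1 lower in koCARM1 with vehicle. CDX2 had 109 to 167 counts in koCARM1 and at most 2 elsewhere, while LGALS4 was lower (−0.90). NKX2-1, of lung and thyroid, had at least 933 counts in every library. The summed ciliated and liver lists overlapped between control and koCARM1, but single genes differed. With vehicle 1 of 4 ciliated genes tested was higher in koCARM1 and 2 were lower. Of 3 liver genes tested, 1 was higher and 1 lower. The stroma and sex cord list was at 24.4 to 28.0 CPM in control and 5.03 to 7.85 in koCARM1, and 2 of its 3 genes tested were lower with vehicle. In the same order, the squamous list was at 2.21 to 3.24 and 0.0857 to 0.670. Of its 4 genes only SOX2 was tested (−3.20 with vehicle), and the other 3 were not detectable in control. The melanocyte and neural crest list was at 0.831 to 1.48 in control and 12.2 to 18.4 in koCARM1, and of its 4 genes 2 were tested and were higher with vehicle. The breast and urothelial list was at 197 to 240 in control and 43.8 to 60.9 in koCARM1, a sum that follows its most abundant gene. Of its 2 genes tested with vehicle, 1 was lower in koCARM1 and GATA3 was higher (4.40). Blood markers summed to at most 3.43 CPM and endothelial markers to at most 0.318 in any library. The part of these markers in the differences of the members was not tested, and genotype cannot be told apart from any other way in which the koCARM1 cells differ. In bulk RNA, fewer cells with a transcript and less of it per cell cannot be told apart.

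**Figure D4:**
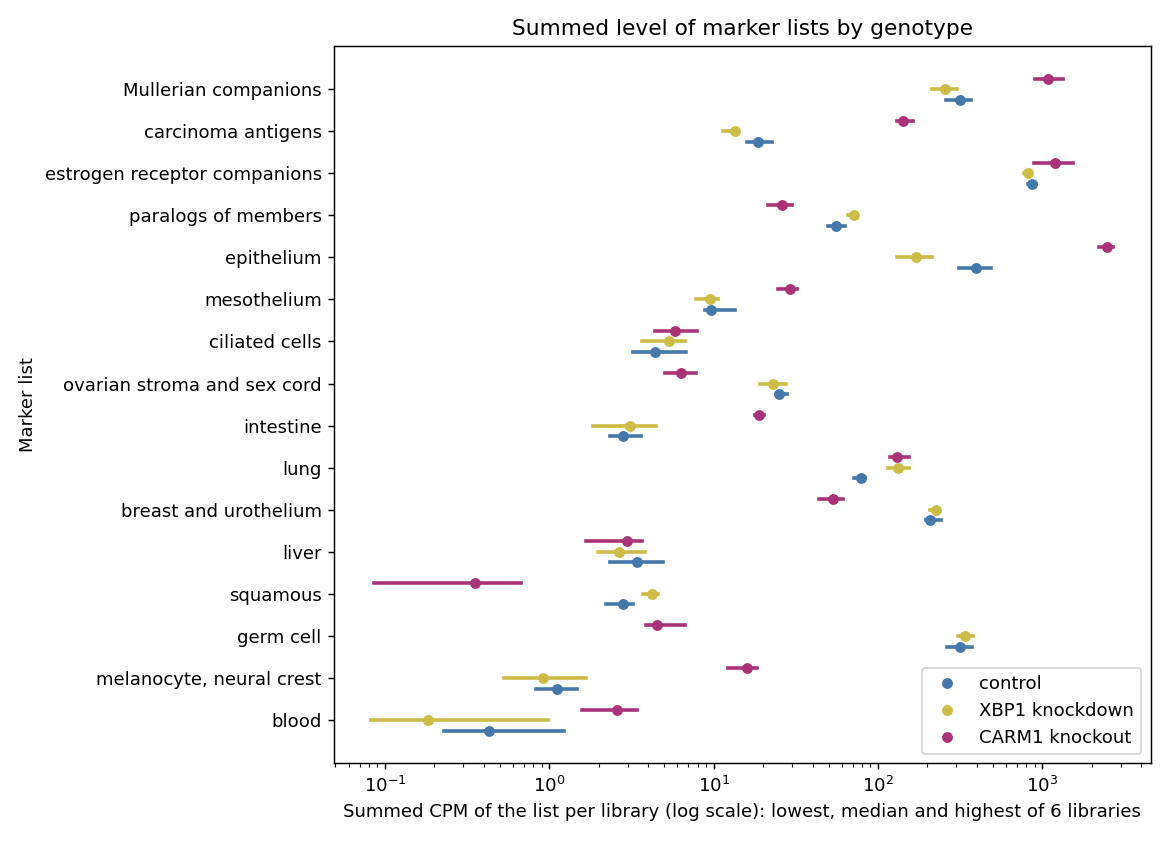
Summed CPM (log axis) of 16 marker lists (rows) in the 6 libraries of each genotype. The line runs from the lowest to the highest library and the point is the median; the antisense and endothelial lists, with libraries at 0, are left out. Epithelial markers are highest in the CARM1 knockout (2204 to 2708) and germ cell markers lowest there (3.89 to 6.66).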

How the data were processed

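Single reads of 75 nt from mRNA 3 prime ends were obtained for 18 libraries of A1847 cells. The authors used bowtie2 with hg19 and RSEM, and the deposited table holds whole-number expected counts for 57736 Ensembl genes. The submitters' processing notes give RSEM 1.2.3 and list DESeq2, while the paper's methods give a different RSEM version. The annotation release and strand setting are not given in the sources used here. Symbols matched 55501 rows. The 5 list genes without a matched row were not analysed here, and some list genes that entered the counts are not reported by name.

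Totals were 9367462 to 13917212 counts, which sets the limit of detection. Replicates differed by more than sampling noise, with chi-square per degree of freedom of 1.84 to 6.89. No library was thus a copy of another of its group, and all were kept. edgeR 4.0.16 (R 4.3.3) was run with TMM scaling, filterByExpr with a minimum count of 10 over all libraries, and the quasi-likelihood F test, two-sided, with Benjamini-Hochberg adjustment at an FDR of 5% over 17317 genes. Each SE was derived from the F statistic, as the size of the log2 change over the root of F. Each of 7 comparisons used the 6 libraries of its 2 groups, and 2 interaction terms used 12. Comparisons against 1 control group share its libraries. The share of all genes whose libraries did not overlap between groups was not counted. For 3 against 3 libraries the smallest p of an exact permutation test is 0.1. Scripts were tested on simulated data. CPM use TMM-scaled library sizes. Ratios against groups of 3 or fewer counts per library used summed counts with exact conditional binomial 95% intervals.

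The members and gene lists were chosen with earlier results of these data known. All members are named, with CARM1, XBP1 and HSPA5; of each list, up to 6 called genes with the largest log2 fold change in a comparison, plus markers needed to say which are near 0 (ESR2, FOLR2, FOLR3, MSLNL, POU5F1 and BNC1 among them). Alternatives were DESeq2 1.42.0 size factors and Wald test, other filters, 1 fit of all 18 libraries, a 1.5-fold minimum, the replicate number as a block, an FDR of 1%, and leaving out each library.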

Additional observations from a re-analysis of the deposited data

Results flagged for a closer look

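No member differed between genotypes in its response to tunicamycin by the interaction term. Of the 6 members tested, only PAX2 and FOLR1 passed the limit of detection in control libraries. Between koCARM1 and control, 9 other genes named above did so (edgeR quasi-likelihood test, adjusted p from 1.71e-10 to 0.0396). Of all genes tested, 10.5% were higher and 12.4% lower by this term, 22.9% in all. Each of the 9 is listed because the difference between the 2 responses passed the test of the difference itself. The response was higher in koCARM1 for HSPA5 (0.67 on the log2 scale), XBP1 (0.37), PAX6 (0.80), LIN28A (1.19) and SALL4 (0.75). It was lower for KRT18 (−0.94), KRT8 (−0.31), CCND1 (−0.36) and NR2F2 (−0.24). LIN28A and SALL4 rest on 4 to 51 counts per library in koCARM1. The groups hold 3 libraries each, too few to look for a single library far from the others.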

How the results depend on the processing

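With all 18 libraries in one fit, 2 members in place of 1 were called for tunicamycin in control (FOLR1 added, adjusted p = 0.0232) and 1 in place of 2 in koCARM1 (MSLN lost, 0.50, adjusted p = 0.0685). With a 1.5-fold minimum, 0 were called for tunicamycin in koCARM1 and 0 in shXBP1. With at least 10 counts in every compared library, 1 member was called between koCARM1 and control with vehicle and 0 with tunicamycin, because that filter leaves fewer members to test. Without a low-count filter, 1 was called for the interaction of shXBP1 (PAX2). At an FDR of 1% the WT1 call in koCARM1 against control with tunicamycin was lost. Leaving out 1 library at a time gave 1 to 2 calls for tunicamycin in control (2 without control tunicamycin replicate 3), 5 to 6 for koCARM1 against control with tunicamycin (5 without koCARM1 tunicamycin replicate 2), 0 to 1 for the interaction of koCARM1 (1 without control tunicamycin replicate 3), and 18 to 19 detectable combinations of member and group (18 with all libraries). In such fits 3 values that had not passed the test changed sign. For tunicamycin in koCARM1, PAX2 ran from −0.61 to 0.025 and WFDC2 from −0.11 to 0.049 (0.000143 in a second fit), and for shXBP1 against control with tunicamycin FOLR1 ran from −0.43 to 0.42 (also 0.00477 and 0.15). Of the alternatives for counts of members, 148 stayed within 1.5 times the main count and 9 did not. Replicate numbers are shared across groups, but 0 of 21 same-numbered pairs deviated together at r above 0.1 (−0.0480 to 0.0387) and 5 correlated best with their own number. The fit with the replicate number as a block changed no call of a member (for example PAX2 with tunicamycin in control, −0.68, adjusted p = 5.82e-07). Depth limits PAX2 and WT1 in koCARM1 and FOLR1 outside it, which rest on 13 or 20 counts at most per library.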
